A study of Homo sapiens with 3 samples.

Results

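The cells described here are barcodes of single H9 cells in which over 25% of the unique molecular identifiers (UMIs, tags that count captured RNA molecules) came from the 35 genes with the MT- prefix, the genes of mitochondrial DNA. They were selected on this share and on depth, among barcodes with 1000 to 5000 UMIs and at least 500 genes, and were set against the barcodes of the same library with 5 to 25%. This gave 1466 cells above the limit and 1836 cells at 5 to 25%, among 5849 barcodes in the window and 39687 barcodes in all. The remaining barcodes of the window had under 5% and were not compared. A limit of this kind is commonly used to drop cells before analysis, so the dropped cells are seldom looked at themselves.

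Mitochondrial DNA encodes subunits of the respiratory chain, 2 ribosomal RNAs and transfer RNAs, and its transcripts are made and kept inside the organelle. A cell whose plasma membrane leaks can lose cytosolic messenger RNA while it keeps its mitochondria, and cells also differ in how many mitochondria they hold, so a high share has more than 1 source. The nuclear genome carries many old copies of mitochondrial DNA, and reads of a mitochondrial transcript can be counted under such a copy or under the gene around it.

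H9 is an established human embryonic stem cell line. Per the labels' protocols it was grown in mTeSR, a stem cell medium, and with the STEMdiff SMADi Neural Induction Kit, which turns stem cells towards neural progenitor cells by SMAD inhibition, and it was profiled by inDrop with the TruDrop protocol. There are 3 libraries, labelled day 0 (A), day 2 (B) and day 6 (A) of this differentiation, with 1 library for each day. The labels do not explain the letters. In each library the cells above the limit and the cells at 5 to 25% carry the same label, line and treatment, and the mitochondrial share alone separates them.

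The libraries held 11291, 12323 and 16073 barcodes with 32831973, 32005289 and 51492505 UMIs. Marker genes went against the day labels: among the cells at 5 to 25%, POU5F1 (the pluripotency factor OCT4) had 1.02, 1414 and 342 counts per 1000000 UMIs without MT- genes (CPM) under the labels day 0, day 2 and day 6, while the neural progenitor factor PAX6 had 239, 13.3 and 44.5 CPM. The libraries are therefore named by label only, and every comparison below is within a library. Some barcode sequences occur in more than 1 library: 69 of the 379 cells above the limit and 71 of the 371 cells at 5 to 25% in day 0, 105 of 539 and 124 of 571 in day 2, and 76 of 548 and 164 of 894 in day 6.

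The share of the window that lay above the limit was 34.2% in the library labelled day 0, 27.5% in day 2 and 19.7% in day 6. The share chose the cells, so it is given as a description. Its median was 40.2% in cells above the limit and 13.6% in cells at 5 to 25% in day 0, 43.2% and 11.8% in day 2, and 39.3% and 10.8% in day 6. The counts of cells by share run on across 25% without a gap in each library, and above it they spread broadly up to about 50%. Just above the limit, at 25 to 27.5%, lay 17, 35 and 37 cells with a median of 1018, 1076 and 952 genes, and just inside the kept range, at 22.5 to 25%, lay 28, 36 and 46 cells with a median of 1444, 924 and 1201 genes.

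**Figure D1:**
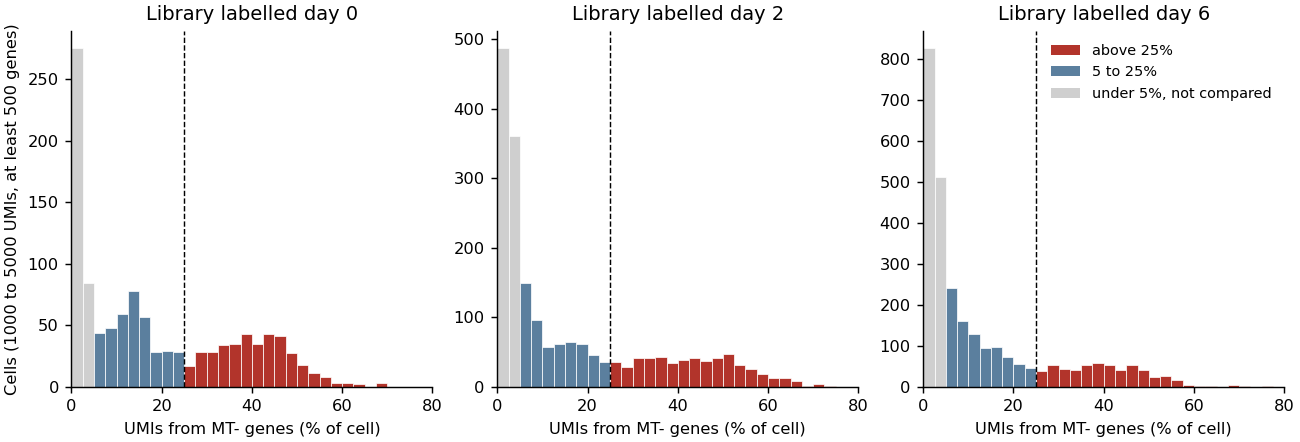
Cells with 1000 to 5000 UMIs and at least 500 genes, counted by the percent of their UMIs from MT- genes in bins of 2.5 points, 1 panel per library. Red bars are the 379, 539 and 548 cells above the limit of 25% (dashed line), blue bars the 371, 571 and 894 cells at 5 to 25%, and grey bars the cells under 5%, which were not compared.

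Cells above the limit had a median of 836, 838 and 860 genes in day 0, day 2 and day 6, against 1549, 1030 and 1127.5 genes at 5 to 25%. Their median UMIs were 2334, 2722 and 2190.5, against 3202, 1977 and 2063.5. Without the MT- genes the medians were 1334, 1424 and 1270 UMIs above the limit and 2774, 1753 and 1841.5 UMIs at 5 to 25%. When every cell was thinned to 500 UMIs without MT- genes, which left out no cell, the median became 371, 360 and 388 genes above the limit and 395, 386 and 402 genes at 5 to 25%. Those UMIs still held the 18 genes described below that follow the mitochondrial UMIs. Thinned to 500 UMIs without these genes as well, again with 0 cells left out, the medians changed. They were 404, 393 and 414 genes above the limit and 400.0, 389 and 405.5 genes at 5 to 25%. The lower median above the limit was thus not seen in the compared cells. However, the minimum of 500 genes had removed cells almost only above the limit. Without it that side held 458, 707 and 706 cells, and the side at 5 to 25% held 371, 572 and 895. The thinned medians therefore cannot show whether gene number was lower over all cells above the limit.

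The make-up of the mitochondrial UMIs differed between the sides. The 2 ribosomal RNAs, MT-RNR1 and MT-RNR2, took 16.9% of the MT- UMIs above the limit and 29.8% at 5 to 25% in day 0, 16.9% and 20.3% in day 2, and 11.4% and 18.9% in day 6. Their share was thus lower above the limit in all 3 libraries, with ratios of 0.568, 0.833 and 0.599. MT-CO2, a subunit of cytochrome c oxidase, went the other way: 7.53% and 5.90% of the MT- UMIs in day 0, 8.79% and 6.89% in day 2, and 9.60% and 7.22% in day 6. Its share ratio was 1.28 (95% interval of counting error 1.25 to 1.31), 1.28 (1.25 to 1.30) and 1.33 (1.31 to 1.35). MT-ATP6, of the ATP synthase, also took a larger share in each library (ratios 1.28, 1.11 and 1.20), while MT-CO1 stood close to 1 (1.02, 0.986 and 0.998). MT-ND6, the complex I subunit encoded on the other strand from most of the genes, took a smaller share above the limit, with ratios of 0.785, 0.825 and 0.907. The 7 complex I subunits together had ratios of 1.19, 0.993 and 1.07, so they did not move the same way everywhere. All of these are shares of the same MT- total, so the smaller share of the ribosomal RNAs by itself raises the shares of other genes. The ratios therefore cannot be read as separate changes of each gene.

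For the nuclear genes, UMIs were summed per gene over the cells of a side, giving 576032, 848912 and 802471 UMIs without MT- genes above the limit and 977607, 1127942 and 1889324 UMIs at 5 to 25%, and were scaled to CPM. The 3 pairs of sums were compared with edgeR's quasi-likelihood test with the library as a block and Benjamini-Hochberg adjustment. A gene was called if its adjusted p was under 0.05 and its direction the same in all 3 libraries. Of 9960 genes tested, 94 were higher above the limit (0.944%) and 29 were lower (0.291%), and 7 passed the threshold with mixed directions. The p-values measure how alike the difference is over 3 unlike libraries, not over replicate cultures. By size alone, 173 genes (1.74%) were at least 1.5-fold higher in all 3 libraries and 66 (0.663%) at most 1/1.5-fold. The median log2 ratio over all genes was -0.09, -0.07 and -0.05 in day 0, day 2 and day 6.

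These counts depend on single libraries. Without the library labelled day 0 the counts were 110 higher and 14 lower, without day 2 they were 198 and 279, and without day 6 they were 84 and 8. Of the 94 higher calls 44 held whichever library was left out, and of the 29 lower calls 4 did: EEF2, EEF1A1, HNRNPA1 and STEAP1B. Of the calls 76.4% were higher ones. DESeq2 called 59 higher and 3 lower (95.2% higher).

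The genes that stood highest above the limit followed the mitochondrial UMIs themselves. Per UMI of other genes, the summed MT- UMIs were 4.19-fold, 5.41-fold and 4.76-fold as high above the limit as at 5 to 25% in day 0, day 2 and day 6. RP5-857K21.4, a clone-named transcript, had 90510 CPM above the limit and 18090 CPM at 5 to 25% in day 0, 97760 and 16810 CPM in day 2, and 69560 and 12970 CPM in day 6. It was thus 5.002-fold (95% interval of counting error 4.92 to 5.09), 5.81-fold (5.72 to 5.91) and 5.36-fold (5.28 to 5.45) as high, and every sum above the limit lay over every sum at 5 to 25%. This transcript alone made up 9.05%, 9.78% and 6.96% of all UMIs counted as not mitochondrial above the limit, against 1.81%, 1.68% and 1.30% at 5 to 25%.

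When the window was split into 7 bands of mitochondrial share, from under 5% to over 50%, the CPM of RP5-857K21.4 spanned a 98.3-fold, 67.3-fold and 64.6-fold range over the bands. Counted per 1000 MT- UMIs it stayed between 98.7 and 134 UMIs in day 0, 103 and 123 in day 2, and 86.9 and 103 in day 6. KIAA1468 (also named RELCH, a protein of endosomes; chromosome 18, 62187255 to 62310217) behaved alike: its CPM spanned an 82.3-fold, 52.3-fold and 39.1-fold range, and it lay between 1.31 and 2.30, 2.05 and 2.48, and 1.60 and 2.57 UMIs per 1000 MT- UMIs. Neither gene steps at 25%, and both run on through the limit. By contrast EEF1A1, a translation elongation factor, had 74.3 UMIs per 1000 MT- UMIs at 5 to 10% and 2.38 at over 50% in day 0.

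**Figure D2:**
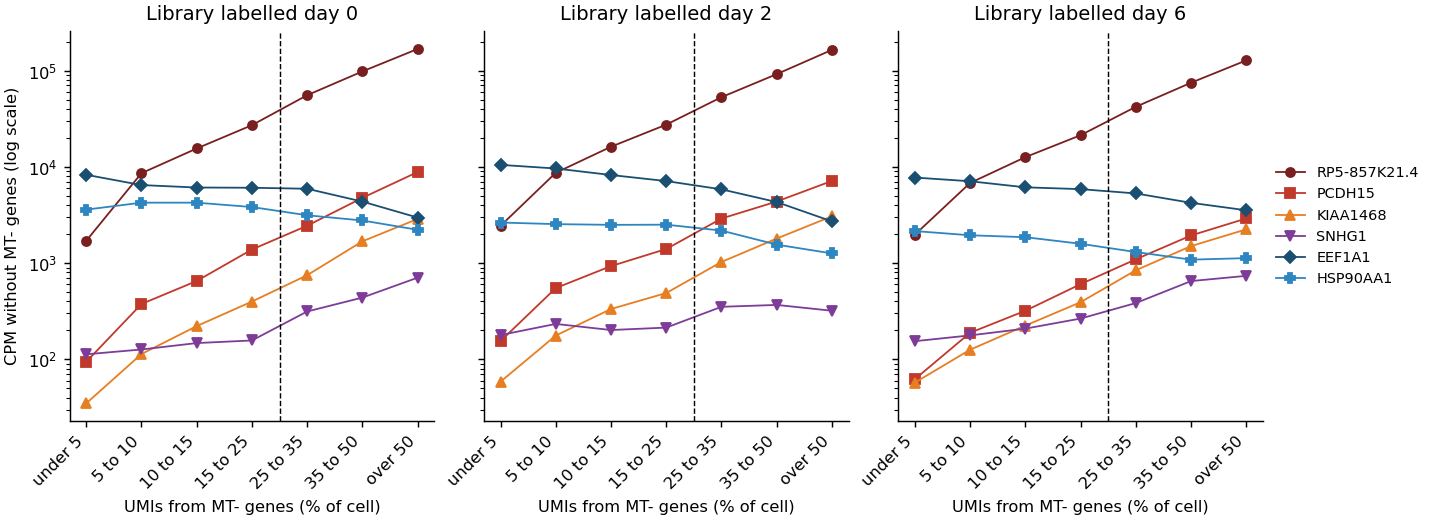
CPM without MT- genes (log axis) in 7 bands of the percent of UMIs from MT- genes, low to high, 1 panel per library, for 4 genes called higher and 2 called lower above the limit of 25% (dashed line). RP5-857K21.4, PCDH15 and KIAA1468 climb through all bands in step with the mitochondrial share, SNHG1 climbs less and levels off in the library labelled day 2, and EEF1A1 and HSP90AA1 are lowest in the bands above 35%.

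After these values were seen, the genes called higher were searched for those whose log2 ratio lay within 0.5 of the log2 ratio of the summed MT- genes (2.07, 2.43 and 2.25) in every library. There were 18: ADAMTS9-AS2, AZIN2, DISC1, DMGDH, EPHA6, GRIK4, KIAA1468, KRT75, LINC00658, MAN2B2, PALM2, PCBD2, PCDH15, PDZRN4, RP11-388G22.1, RP5-857K21.4, TMCC2 and ZBTB7B. They hold 11 of the 15 highest named genes. Several are genes of specialised tissues, such as PCDH15, a protocadherin of inner ear hair cells, KRT75, a keratin of hair follicles, and GRIK4, a glutamate receptor subunit. Because their level followed the value that chose the cells, their folds describe these cells and are no support for a nuclear difference.

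PCDH15 (chromosome 10, 53802771 to 55627942) had 4387, 4601 and 1756 CPM above the limit in day 0, day 2 and day 6, against 854, 928 and 356 CPM at 5 to 25%. PCBD2, a pterin dehydratase (chromosome 5, 134904906 to 135007959), had 2238, 2554 and 1018 CPM, against 450.1, 412 and 186 CPM. KIAA1468 had 1484, 1877 and 1357 CPM, against 261, 319 and 237 CPM. In these 3 genes, picked for following the MT- genes, the sums of the sides did not overlap across libraries. The share of all tested genes without overlap is not given here, so this is a description only. TMCC2, LINC00658 and RP11-388G22.1 had lower levels and ratios between 3.93-fold and 6.95-fold. PALM2, ZBTB7B, DISC1 and MAN2B2, at far lower counts, varied more per MT- UMI over the bands. DISC1 spanned at most a 9.997-fold range in a library, MAN2B2 a 10.3-fold range and ZBTB7B an 11.55-fold range (day 6). PALM2 spanned a 17.56-fold range in day 0, wider than the 7.109-fold range of its CPM there, so it did not follow the MT- UMIs over those bands. AZIN2 (day 0), EPHA6 (day 6), GRIK4 (day 2) and PDZRN4 (day 2) spanned 5.728-fold, 5.776-fold, 6.319-fold and 5.966-fold ranges per MT- UMI. A band with 0 UMIs occurred for PALM2 in day 2, for ZBTB7B, GRIK4 and PDZRN4 in day 0, and for KRT75 in day 0 and day 6. No range can be given there.

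Together the 18 genes took 10.1%, 11.04% and 7.58% of the UMIs counted as not mitochondrial above the limit in day 0, day 2 and day 6, against 2.04%, 1.91% and 1.42% at 5 to 25%. Counted as mitochondrial, they would have put 31, 43 and 44 of the cells at 5 to 25% above the limit, which is 8.36%, 7.53% and 4.92% of these cells. They also weigh on every other ratio: without them the median log2 fold of all genes was 0.06 in place of -0.06, with 96 genes called higher and 12 lower (88.9% higher). All 76 of the other higher calls and 12 of the 29 lower calls held in that fit. Folds of lower genes below are given with all genes in the totals and are to be read against this shift of 0.12 on the log2 scale.

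**Figure D3:**
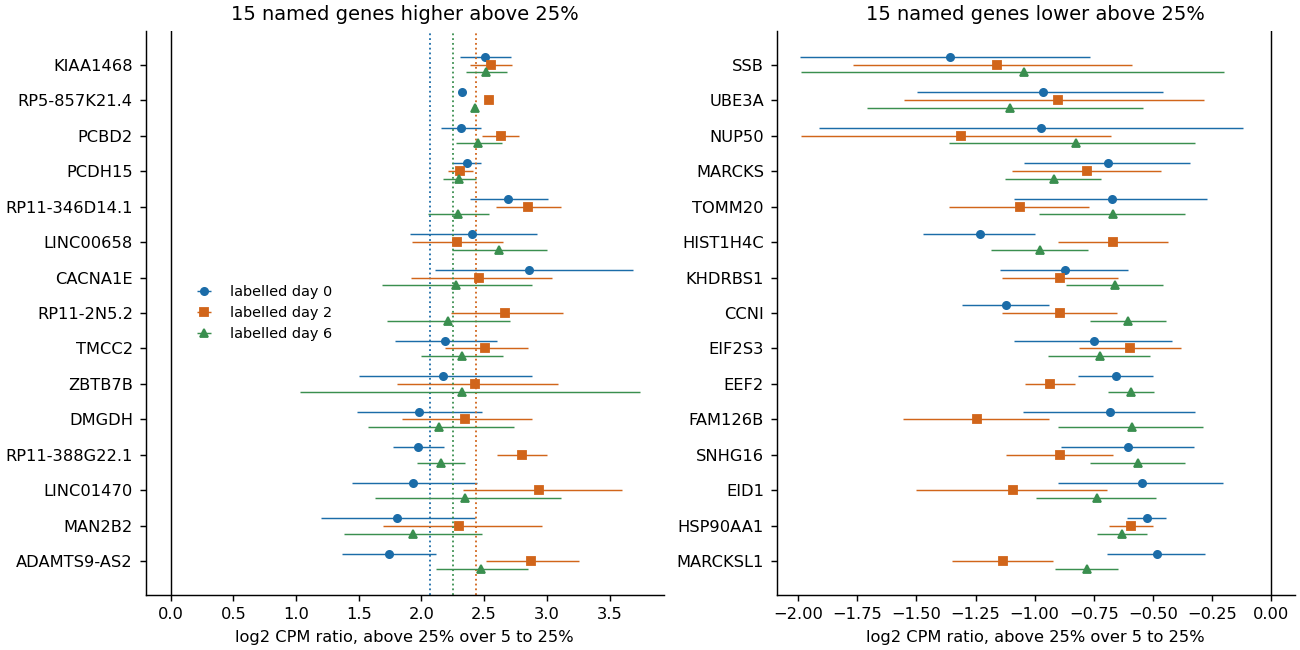
log2 CPM ratio of cells above 25% over cells at 5 to 25% in each library (symbols, with 95% intervals of counting error) for the 15 highest and the 15 lowest named genes. Dotted lines mark the summed MT- genes at 2.07, 2.43 and 2.25 under the labels day 0, day 2 and day 6, and most of the 15 highest lie close to them. RP11-2N5.2 has no point for day 0, where 1 UMI stood against 0.

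The annotation shows mitochondrial copies at some of the genes called higher and also at genes that were not called. In GENCODE v29 (GRCh38), the spans of 5 of the 77 higher genes with a matched position hold an annotated copy of a mitochondrial gene or are one, among them PCBD2, PCDH15 and MIR6723, against 0 of the 29 lower genes and 31 of the 9657 tested genes with a position. Of those 31 genes 5 were called higher, where 0.944% of all genes tested were. In all 3 libraries 13 of the 31 were higher, where 13.1% of all genes tested were. MTRNR2L12 and MTRNR2L8, the nuclear copies of MT-RNR2 that passed the minimum level, were both called higher (log2 fold 1.95 ± 0.24 and 1.91 ± 0.31 (SE), adjusted p = 0.000187 and 0.00299). MTRNR2L12 had 130.2 CPM above the limit and 51.1 CPM at 5 to 25% in day 0, 243 and 48.8 CPM in day 2, and 64 of 802471 UMIs against 34 of 1889324 UMIs in day 6. The references used here give no position for RP5-857K21.4 and RP11-388G22.1, and for the remaining parallel genes the counted reads were not used here, so which bases were counted was not tested.

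3 of the copies are shown beside the mitochondrial gene they match. Each is read 5′ to 3′ from the GENCODE v29 transcript on the minus strand of GRCh38, and capitals mark the bases that differ within the pair. The MIR6723 locus, chr1:632325-632413, is a microRNA hairpin of 89 bases that matches the opposite strand of MT-CO1 at 98.9% with 1 difference. The MTRNR2L12 window, chr3:96618146-96618235, has 8 differences from MT-RNR2 in 90 bases. The MTND5P11 window, chr5:134926370-134926459, lies in the span of PCBD2 and has 9 differences from MT-ND5 in 90 bases. Its whole match covers 1812 aligned bases at 93.0%.
MIR6723: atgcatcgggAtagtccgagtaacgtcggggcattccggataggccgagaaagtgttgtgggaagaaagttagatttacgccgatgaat
MT-CO1, opposite strand: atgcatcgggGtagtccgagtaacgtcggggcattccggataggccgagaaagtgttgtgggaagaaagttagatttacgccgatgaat
MTRNR2L12: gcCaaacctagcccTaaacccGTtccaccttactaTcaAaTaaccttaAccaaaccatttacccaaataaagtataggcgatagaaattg
MT-RNR2: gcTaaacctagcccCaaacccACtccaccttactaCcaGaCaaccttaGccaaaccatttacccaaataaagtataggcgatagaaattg
MTND5P11: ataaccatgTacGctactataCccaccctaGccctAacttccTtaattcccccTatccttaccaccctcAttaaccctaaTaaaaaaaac
MT-ND5: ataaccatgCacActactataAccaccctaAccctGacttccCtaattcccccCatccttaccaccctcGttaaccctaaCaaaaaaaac
MIR6723 itself was near the floor, with 15.6, 18.9 and 16.2 CPM above the limit and 3.07, 7.09 and 1.59 CPM at 5 to 25%.

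The 15 highest named genes also hold 4 that were not parallel to the MT- genes by the rule above. RP11-346D14.1 had 720.4, 934 and 542 CPM above the limit, against 112, 129 and 111 CPM at 5 to 25% (log2 fold 2.61 ± 0.17 (SE), adjusted p = 7.07e-08). CACNA1E, a voltage-gated calcium channel subunit, had 134, 171 and 94.7 CPM, against 18.4, 31.0 and 19.6 CPM (edgeR, adjusted p = 7.9e-06). LINC01470 had 199.6, 177 and 64.8 CPM, against 52.2, 23.1 and 12.7 CPM. RP11-2N5.2 had 293 CPM above the limit and 46.1 CPM at 5 to 25% in day 2 and 135 and 29.1 CPM in day 6, but 1 UMI against 0 in day 0, so its direction there rests on a single UMI. The folds of these 4 genes lie near those of the MT- genes too, and they fell outside the rule by 1 library or more.

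Among the other genes called higher, those that stood highest were chosen after their values were seen. RN7SL1 is the RNA of the signal recognition particle that guides new proteins to the endoplasmic reticulum. It had 88.5, 103 and 47.4 CPM above the limit, against 23.5, 37.2 and 12.7 CPM at 5 to 25% (edgeR, log2 fold 1.72 ± 0.25 (SE), adjusted p = 0.000881). Its ratio was within 0.5 of the summed MT- genes on the log2 scale in day 0 and day 6, but not in day 2. RN7SL2 and RN7SL5P were called higher too, but the 3 are near-identical copies, so how reads were split between them is uncertain, as it is for NPIPA1 and NPIPA7. NSUN2, an RNA cytosine methyltransferase, had 201, 239 and 116 CPM, against 75.7, 74.5 and 52.9 CPM (log2 fold 1.41 ± 0.20, adjusted p = 0.00103). METTL15, which methylates the small mitochondrial ribosomal RNA, had 835 and 203.6 CPM in day 0, 954 and 199 CPM in day 2, and 102 and 56.1 CPM in day 6. Its ratio of 1.82 in day 6 (interval 1.35 to 2.45) lay below the ratios of 4.10 and 4.80 in day 0 and day 2. In day 0 and day 2 it was within 0.5 of the summed MT- genes on the log2 scale, and so followed the value that chose the cells there.

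Several higher calls rest mostly on 1 library in level. XIRP2, an actin-binding protein of muscle, had 329 and 54.5 CPM in day 6 but at most 15.3 CPM in the other libraries. LHFPL5, a protein of inner ear hair cells, had 264 and 25.7 CPM in day 2 and at most 13.9 CPM elsewhere. CTC-340A15.2 had 307 and 76.7 CPM in day 0 and at most 14.1 CPM elsewhere. XIRP2 was 6.035-fold as high in day 6, where the summed MT- genes were 4.755-fold as high. CTC-340A15.2 was 4.005-fold as high in day 0, where the summed MT- genes were 4.19-fold. These ratios lie near the value that chose the cells, so both calls are no support for a nuclear difference. LHFPL5 lay further above it in day 2, at 10.26-fold beside 5.41-fold. RN7SK, a small nuclear RNA that holds back transcription elongation, passed the threshold (log2 fold 1.60 ± 0.38, adjusted p = 0.0463) but was not called, since it had 46.9 and 12.3 CPM in day 0, 1892 and 345 CPM in day 2, and 19.9 and 29.1 CPM in day 6. The day 2 levels of RN7SK stood in about the ratio of the summed MT- genes there, 5.41-fold. LINC00486, which took 21250, 26180 and 18030 CPM above the limit and 16310, 19460 and 14310 CPM at 5 to 25%, had the smallest fold of the higher calls (log2 fold 0.38 ± 0.06, adjusted p = 0.00217).

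Of 16 measured host genes of small nucleolar RNAs, non-coding transcripts whose introns yield guides for ribosomal RNA modification and whose spliced RNA is turned over quickly in the cytoplasm, 3 were higher and 1 lower, where 0.944% and 0.291% of all genes were. SNHG1 had 424, 351 and 566 CPM above the limit, against 146, 219.9 and 214 CPM at 5 to 25% (log2 fold 1.20 ± 0.19 (SE), adjusted p = 0.00202). SNHG12 had 55.6, 80.1 and 68.5 CPM, against 25.6, 36.3 and 22.8 CPM, and SNHG17 had 31.2, 42.4 and 42.4 CPM, against 10.2, 20.4 and 18.5 CPM. The lower one was SNHG16, with 255, 269 and 326 CPM, against 388, 499 and 482 CPM. GAS5, the best known of the hosts, had 332, 405 and 297 CPM, against 265, 399 and 232 CPM, and was not called. The median log2 ratio of the 16 was 0.17, 0.37 and 0.17, beside -0.09, -0.07 and -0.05 over all genes. The call of SNHG16 ended without the parallel genes (edgeR, adjusted p = 0.105). Without the library labelled day 6 none of these 4 calls held, without day 0 the calls of SNHG17 and SNHG16 were lost, and in cells over 5000 UMIs SNHG12 was the 1 of the 4 called.

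Fewer genes were called lower (29) than higher (94), but of any size 2138 genes (21.5%) lay lower in all 3 libraries and 1309 (13.1%) higher, and the order of the calls turned without the library labelled day 2 (198 higher, 279 lower) and at 1000 to 2000 UMIs (74 and 111). Of 33 measured translation factors 4 were called lower, where 0.291% of all genes were, and 0 higher. EEF2, which moves the ribosome along the messenger, had 786 CPM above the limit and 1240 CPM at 5 to 25% in day 0, 1174 and 2246 CPM in day 2, and 1379 and 2082 CPM in day 6 (log2 fold -0.73 ± 0.12 (SE), adjusted p = 0.00325). EEF1A1, which brings the transfer RNAs, had 4751, 4379 and 4524 CPM, against 6169, 8440 and 6436 CPM (log2 fold -0.61 ± 0.10, adjusted p = 0.00342). EIF2S3, a subunit of the initiation factor eIF2, and PABPC1, which binds messenger tails, were the other two, and both lost the call in the edgeR fit without the parallel genes (adjusted p = 0.11 and 0.0538). The log2 medians of the 33 factors were -0.16, -0.45 and -0.28. Of 83 cytosolic ribosomal protein genes 2 were lower (RPLP0 and RPSA) and 0 higher, at medians of -0.22, -0.17 and -0.19. Of these 83 genes 61 lay below 1 in all 3 libraries (73.5%, against 21.5% of all genes tested). The 21.5% covers genes of every level from 10 CPM, so it is no baseline matched in level. With the parallel genes in the totals, the displacement of the ribosomal protein genes was small and shared by most members. In the edgeR fit without the parallel genes their median log2 fold was -0.09 in place of -0.21, and neither RPLP0 nor RPSA was called (adjusted p = 0.0611 and 0.0834).

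HSP90AA1, a cytosolic chaperone, had 2840, 1672 and 1169 CPM above the limit, against 4090, 2519 and 1809 CPM at 5 to 25%, ratios of 0.694, 0.664 and 0.646 that differed little between libraries (adjusted p = 0.0054). HIST1H4C, which encodes histone H4, had 321, 269 and 299 CPM, against 755, 426 and 588 CPM (log2 fold -0.96 ± 0.16 (SE), adjusted p = 0.00352). CCNI, an atypical cyclin, had 542, 234 and 499.7 CPM, against 1178, 435 and 759 CPM (log2 fold -0.87 ± 0.15, adjusted p = 0.00441). SSB, the La protein that binds the ends of RNA polymerase III transcripts, had the largest decrease of the 15 lowest by fitted fold (log2 fold -1.20 ± 0.24, adjusted p = 0.0132), at 50.3, 40.1 and 17.4 CPM against 129, 89.5 and 36.0 CPM. That the side above the limit was the lower one in every library follows from the rule of the call and adds nothing to it. All 4 genes were called lower in cells over 5000 UMIs as well. Without the library labelled day 0, however, none of the 4 was called.

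Most of the further lower calls named here did not hold in the edgeR fit without the parallel genes. MARCKS and MARCKSL1, membrane proteins that bind actin, had log2 folds of -0.80 ± 0.17 and -0.80 ± 0.15 (SE), and were the 2 of 31 measured cytoskeletal genes called lower (0.291% of all genes were). MARCKS lost its call in that fit (adjusted p = 0.0611) and MARCKSL1 kept it (0.0358). TOMM20, the import receptor of the outer mitochondrial membrane, had 123, 153 and 139.6 CPM above the limit, against 196, 320.1 and 222 CPM at 5 to 25% (log2 fold -0.81 ± 0.18, adjusted p = 0.0391), and it was the 1 gene called of 25 for import, chaperones and proteases of mitochondria. Its call ended without the parallel genes (edgeR, adjusted p = 0.0892) and with TMM factors (0.0545). KHDRBS1 and HNRNPA1, RNA-binding proteins, kept their calls without the parallel genes, whereas SERBP1 and DICER1, which cuts microRNA precursors, lost theirs (edgeR, adjusted p = 0.0692 and 0.104). UBE3A, a ubiquitin ligase, and NUP50, a nuclear pore protein, had log2 folds of -0.99 ± 0.22 and -1.03 ± 0.24, and also lost their calls (edgeR, adjusted p = 0.077 and 0.0892). PTMA and SET, which bind histones, and the surface protein CD24 were lower too, at log2 folds of -0.68 ± 0.11, -0.69 ± 0.13 and -0.56 ± 0.13. Without the parallel genes PTMA and SET stayed called and CD24 did not (edgeR, adjusted p = 0.141).

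For 4 of the lower calls the annotated span holds a pseudogene named for another gene called lower. STEAP1B holds EEF1A1P6, and its values ran beside those of EEF1A1: 5140, 4801 and 4971 CPM above the limit and 6584, 9586 and 7139 CPM at 5 to 25%. FAM126B holds HNRNPA1P35 and GAREM1 holds HNRNPA1P7, copies of HNRNPA1, and the fourth is a Y-linked transcript around a copy of CD24. Among all tested genes 61 hold a pseudogene named for a gene called lower. Of these 61 genes 4 were called lower, where 0.291% of all genes were. Another 11 lay lower in all 3 libraries without a call, where 21.5% of all genes lay lower in all 3. Whether the counted reads came from the copies or from the spliced genes was not tested, so these 4 are uncertain as calls of their own.

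Most gene groups of the mitochondrion that are encoded in the nucleus gave no call. Of 35 measured complex I subunits 0 were called, with log2 medians of 0.13, -0.23 and 0.11 in day 0, day 2 and day 6, and of 41 subunits of the other complexes 0, with 0.09, -0.26 and -0.01. By edgeR 1198 of all 9960 genes had an unadjusted p under 0.05. NDUFA4, a highly expressed respiratory subunit, had 766, 576 and 932 CPM above the limit, against 726, 676.5 and 750.5 CPM at 5 to 25%. Genes of mitochondrial ribosomal proteins (72 measured) had medians of -0.08, -0.41 and 0.00. None of 23 genes of the ATF4 and mitochondrial stress response was called, and ATF4 had 159.7, 336 and 228 CPM, against 172, 427 and 192 CPM. Likewise 0 of 22 p53 and apoptosis genes, 0 of 16 immediate early genes and 0 of 25 oxidative stress genes were called. A miss of the threshold with 3 pairs does not show that these genes were alike on the sides.

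The library labelled day 2 stood apart in several groups. Its medians were -0.49 for 18 glycolytic enzymes, -0.46 for 42 proteasome subunits and -0.63 for 31 cytoskeletal genes, where day 0 had -0.07, -0.06 and -0.11 and day 6 had -0.20, -0.10 and -0.21. LDHA, the lactate dehydrogenase of glycolysis, had 409 CPM above the limit and 871.5 CPM at 5 to 25% in day 2, beside 224 and 224 CPM in day 0 and 203 and 196 CPM in day 6. For 41 chromatin remodellers and modifiers day 2 had a median of 0.33 and day 0 and day 6 had -0.33 and -0.17. Clone-named RP11 transcripts (150 measured) had a median of 0.41 in day 2, -0.15 in day 0 and 0.05 in day 6, and 10 of them were called higher, where 0.944% of all genes were. Of these 10, RP11-388G22.1 is one of the genes parallel to the MT- genes, and RP11-346D14.1 and RP11-2N5.2 had folds near theirs, so this count is no support for a nuclear difference. The difference between libraries was not tested, since each label has 1 library.

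**Figure D4:**
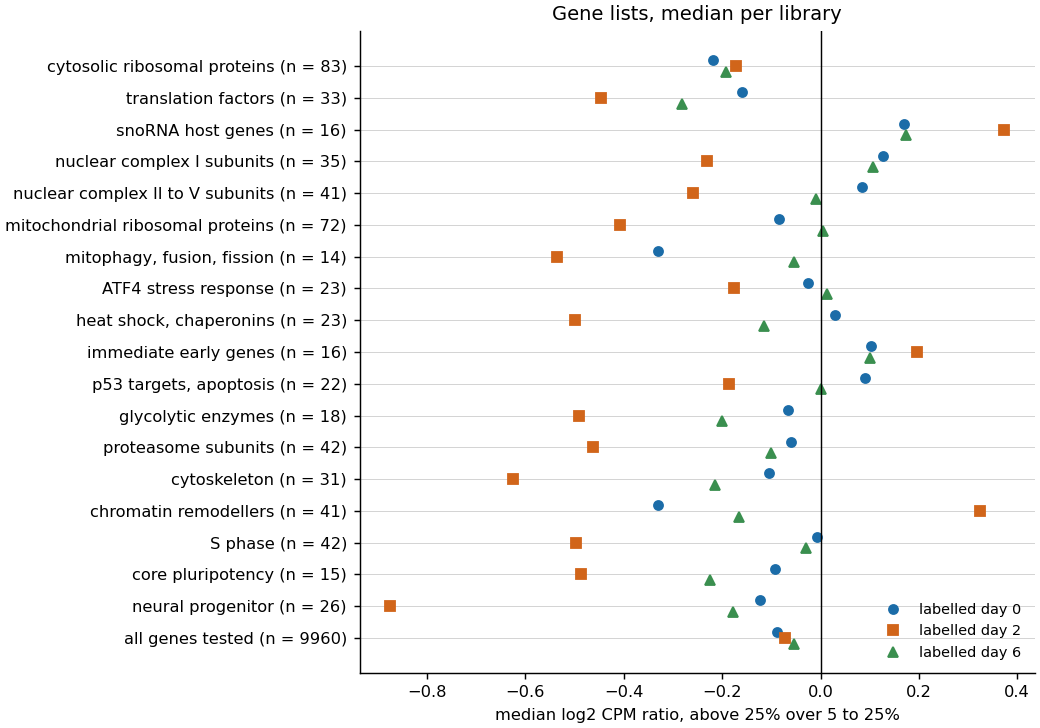
Median log2 CPM ratio of cells above 25% over cells at 5 to 25% for 18 gene lists and for all 9960 genes tested, 1 symbol per library, with the number of measured genes in brackets. Cytosolic ribosomal protein genes sit near -0.2 in all libraries, snoRNA host genes lie above 0 in all, and for many other lists the library labelled day 2 lies far from the other two.

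Summed marker lists were compared between the sides of each library. SOX2 is in both the pluripotency and the neural progenitor list, so the sums share a member and do not by themselves measure identity. The summed core pluripotency genes had 2252 CPM above the limit and 2697 CPM at 5 to 25% in day 0, 4495 and 6368 CPM in day 2, and 5129 and 6051 CPM in day 6. The summed neural progenitor genes had 7540 and 8318 CPM, 1266 and 1968 CPM, and 3593 and 4383 CPM in the same order. Both sums were lower above the limit in each library, and 0 of 15 and 0 of 26 measured members were called. The 18 parallel genes are in these totals, at 10.1%, 11.04% and 7.58% above the limit and 2.04%, 1.91% and 1.42% at 5 to 25%. They thus lower the sums above the limit, and the day 0 neural progenitor difference is about as large as this shift. POU5F1 had 5.21 and 1.02 CPM in day 0, 929 and 1414 CPM in day 2, and 268 and 342 CPM in day 6. The day 0 values are 3 UMIs against 1, too few to give a direction. Markers of cells that should not be in the culture, such as blood and muscle, summed to between 10.6 and 28.7 CPM above the limit and between 17.7 and 25.9 CPM at 5 to 25%, and of neural crest to at most 81.3 and 45.2 CPM. Their part in the calls was not tested.

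The same limit was then applied to cells with over 5000 UMIs, which share no cell with those above but come from the same 3 libraries. There, 149, 571 and 442 cells lay above 25% and 1456, 663 and 1638 cells at 5 to 25% in day 0, day 2 and day 6. There the summed MT- genes were 3.19-fold, 3.35-fold and 3.16-fold as high. edgeR called 134 of 10144 genes higher (1.32%) and 51 lower (0.503%). Of the 94 genes called higher in the smaller cells 89 could be tested. All 89 had a fitted fold of the same sign, 83 were higher in each of the 3 libraries, where 11.04% of all genes were, and 73 were called. These counts include the 18 genes parallel to the MT- genes, all called again. The same share split these cells, so the agreement of those 18 is no support for a nuclear difference. Of the 29 lower genes 29 were lower in each of the 3 libraries, where 26.8% of all genes were, and 15 were called, among them EEF1A1, HNRNPA1, HSP90AA1, PTMA and PABPC1. EEF2 was not called (log2 fold -0.35 ± 0.10 (SE), adjusted p = 0.0689). SNHG1, XIRP2, CDH18 and CTC-340A15.2 passed the threshold by edgeR (adjusted p = 0.0367, 0.00701, 0.00685 and 0.00218) but were not called, since their libraries disagreed in direction: SNHG1 was 1.89-fold, 0.938-fold and 2.40-fold as high.

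The 18 genes parallel to the MT- genes kept pace with them in the larger cells: their median log2 fold was 1.65 there, against 2.25 in the cells of 1000 to 5000 UMIs, while the summed MT- genes had 1.67, 1.75 and 1.66 in the 3 libraries. All 18 were called higher there and 14 again lay within 0.5 of the MT- genes in every library. RP5-857K21.4 was 3.69-fold, 3.53-fold and 3.36-fold as high in the larger cells. RN7SL1, which is not among the 18, did not have a smaller fold there, with a log2 fold of 1.87 ± 0.16 (SE) in the larger cells and 1.72 ± 0.25 in the smaller ones.

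**Figure D5:**
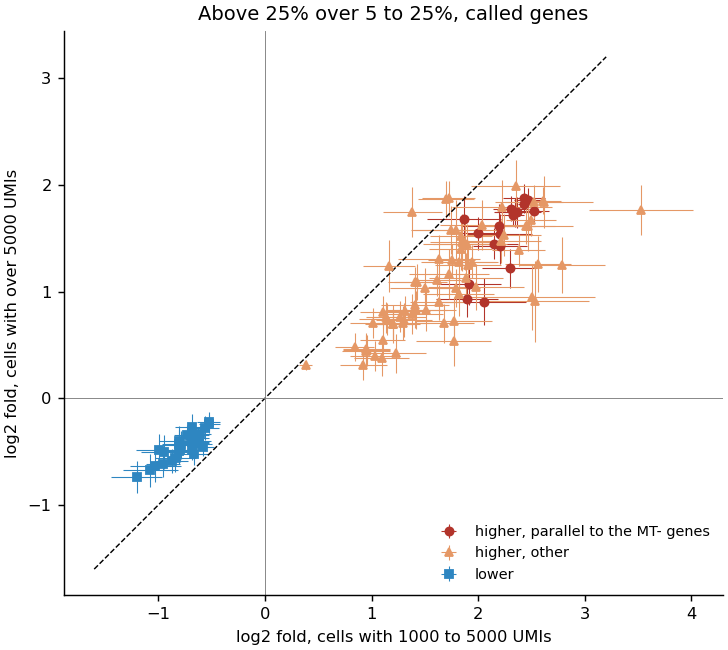
log2 fold of cells above 25% over cells at 5 to 25% (± SE, edgeR) of the called genes, in cells of 1000 to 5000 UMIs (x axis, the cells that gave the calls) and in cells over 5000 UMIs (y axis). All fitted folds keep their sign, and most lie closer to 0 than the dashed line of equal folds, as the summed MT- genes do with 3.16-fold to 3.35-fold in the larger cells.

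Barcodes with 200 to 500 UMIs, too few to pass as cells here, carried 23.1%, 31.1% and 22.8% of their UMIs on MT- genes in day 0, day 2 and day 6. RP5-857K21.4 had 118, 110 and 90.1 UMIs per 1000 MT- UMIs in them, inside its range over the bands of cells in each library. SNHG1 had 258, 401 and 293 CPM in them, between its levels on the sides in day 0 and day 6 and above both in day 2. These barcodes can hold free RNA and broken cells, and their part in the differences was not tested.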

How the data were processed

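Single H9 cells were measured by inDrop (TruDrop), per the labels' protocols. The authors deposited whole-number counts per gene and barcode for each library, taken as UMI counts. STAR and hg38 are named in the submitters' processing notes. Not given in the sources used here: version, counter, annotation, barcode filter, duplicate collapsing and strand. Therefore a gene and its antisense partner cannot be told apart.

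The 3 gene lists were joined by symbol (31113 symbols). UMIs were summed per side and library and scaled to CPM without MT- genes, so that 3 UMIs, the upper limit a count of 0 allows, equal 1.59 to 5.21 CPM. Genes with a mean of at least 10 CPM over the 6 sums were tested with edgeR 4.0.16 (quasi-likelihood, library as block, no further scaling factor) in R 4.3.3, with DESeq2 1.42.0 as an alternative. The library is the pairing: both sums of a library come from it by the rule. Intervals of ratios are exact conditional binomial 95% intervals and cover counting error only. No doublet caller was run. The fits were tested on simulated data. The members, gene lists (42, of 852 symbols, 4 not found and 18 matched by an older symbol) and tests were chosen with earlier results of these data known.

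Named genes were the 15 highest and 15 lowest called genes with at least 50 CPM by the smallest of their 3 ratios, nuclear copies apart, the 4 most abundant genes of each list, and 12 fixed genes. Positions and transcripts are from GENCODE v29 (GRCh38). Symbols without a match have no position here. 22 alternatives were tried. A gene among the higher calls is not reported here by name.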

Additional observations from a re-analysis of the deposited data

Results flagged for a closer look

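MALAT1, a long non-coding RNA that stays in the nucleus, differed in direction between the libraries. Its CPM ratio, above the limit over 5 to 25%, was 0.406 in day 0 (2035 against 5013 CPM), 1.81 in day 2 (2079 against 1149 CPM) and 0.519 in day 6 (380.1 against 733 CPM). It was singled out because the library labelled day 2 moved the opposite way from the other two. With 1 library per label this difference was not tested, and its cause was not tested.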

How the results depend on the processing

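Main counts were 94 genes higher, 29 lower, 173 genes at least 1.5-fold higher in all 3 libraries and 66 genes at most 1/1.5-fold in all 3 libraries. Lower calls numbered 19 with median-of-ratios size factors, 44 with totals without ribosomal protein genes, 12 without the parallel genes, 111 at 1000 to 2000 UMIs (beside 74 higher, 40.0% of calls) and 51 over 5000 UMIs. DESeq2 gave 59 higher and 3 lower. With no replicate block, that is without the pairing by library, edgeR gave 3 and 0, with 244 genes at an unadjusted p under 0.05. A minimum of 50 CPM gave 44 higher, with 43 and 22 past the folds, and no minimum 163 and 72, with 2351 and 131. Genes at most 1/1.5-fold numbered 39 with TMM factors, 27 without the parallel genes, 101 above 30%, 174 at 1000 to 2000 UMIs (341 at least 1.5-fold higher), 116 at 1000 to 3000 UMIs without MT- genes and 9 over 5000 UMIs (89 higher). Leaving out 1 library gave 84 to 198 higher, 8 to 279 lower, 311 to 416 at least 1.5-fold higher and 247 to 328 at most 1/1.5-fold; here fewer libraries had to agree. The causes of the other changes were not tested. For the named genes, 534 values over the alternatives kept direction and side of the threshold, 115 lost the threshold and 0 reversed. With 1 library per label and 371 to 894 cells a side, genes near 10 CPM rest on few UMIs.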

Other observations

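KCNQ1OT1, another nuclear long non-coding RNA, had 24.3 CPM above the limit and 74.7 CPM at 5 to 25% in day 0, 41.2 and 9.75 CPM in day 2, and 29.9 and 34.9 CPM in day 6. SNHG25, a snoRNA host outside the list described above, was called higher with 20.8, 36.5 and 76.0 CPM above the limit, against 9.21, 13.3 and 13.2 CPM at 5 to 25%. Both were chosen after their values were seen.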
